A study of Mus musculus with 6 samples.

Results

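Keratin and surface epithelium genes were described in ovarian granulosa cells of ERK1/2 knockout and wild type mice. They were 8 of the 18194 genes with a probe set that names a single gene, chosen by name: Krt7, Krt8, Krt18 and Krt19, the uroplakin genes Upk1b and Upk3b, the mesothelin gene Msln and the E-cadherin gene Cdh1. The choice was made with earlier results of these data known. The labels give 6 Affymetrix arrays, 1 for each genotype at 0 h, 2.5 h and 4 h after human chorionic gonadotropin (hCG), and name no replicates. Knockout mice (KO) were ERK1 knockout and ERK2 fl/fl;Cyp19CRE, so that ERK1 was missing throughout the animal and ERK2 was to be deleted where the aromatase promoter drives Cre, which in the ovary is in granulosa cells. The mice set against them were labelled wild type (WT). All mice were 23 days old and had been given 5 IU of equine chorionic gonadotropin 48 h earlier, and those of the later times then received 5 IU of hCG, which acts on the receptor of luteinizing hormone. How many animals stood behind an array, and how far other ovarian cells were removed, are not given in the sources used here.

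Keratins are the intermediate filament proteins of epithelial cells and assemble as pairs of a type I and a type II chain. KRT8 (type II) and KRT18 (type I) pair in simple epithelia, where KRT7 (type II) and KRT19 (type I) join them. In the ovary these keratins are known from the surface epithelium, a mesothelial layer that also makes mesothelin and the membrane proteins UPK1B and UPK3B. The granulosa layer lies inside the follicle and joins its cells mainly through N-cadherin.

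The values are RMA intensities on a linear scale, and an intensity of 64 (log2 of 6) served as a floor, below which values were treated as too dim to compare. Between 47.1% and 47.6% of an array's probe sets reached it. All 8 genes lay over the floor on every array, as did 11153 genes by their mean. Granulosa markers were well measured, with 8 of 10 on the array under a single gene name and all 8 over the floor. Their summed intensity was 87651, 111213 and 109742 on the KO arrays at 0 h, 2.5 h and 4 h, against 91565, 71377 and 63286 on the WT arrays. Cyp19a1, Lhcgr and the targeted genes were not analysed here, which leaves the deletion itself unchecked. In a bulk sample, fewer cells of a type and less RNA per cell cannot be told apart.

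Krt7, Krt19, Upk1b, Msln and Cdh1 were higher on all 3 KO arrays than on any WT array, whereas Krt8, Krt18 and Upk3b overlapped between genotypes. Of all genes over the floor, 7.94% were higher in KO without overlap and 5.35% lower, and 5 and 0 of the 8 genes were. Because the 8 were chosen with earlier results of these data known, these shares are a description and not a test. After hCG, Krt7, Krt18 and Krt19 were higher than at 0 h in both genotypes, Upk1b was higher in KO and nearly level in WT, and Cdh1 was lower in both.

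**Figure D1:**
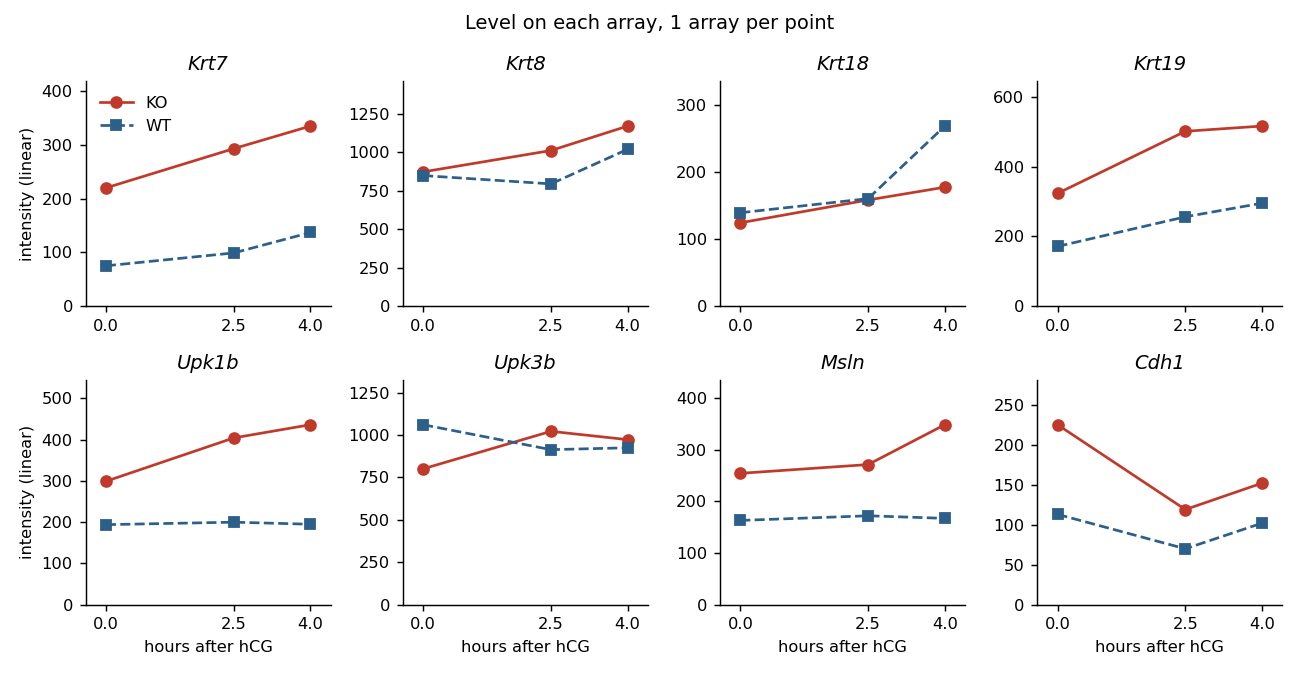
Intensity (linear, axes from 0) of each of the 8 genes by hours after hCG, with KO as red circles and WT as blue squares, 1 array per point. Krt7 ran from 220 to 335 on the KO arrays, all above the WT arrays at 75 to 137, while the lines of Upk3b cross and Krt18 is lower in KO at each time, by the most at 4 h (177 in KO, 268 in WT).

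Krt7, the type II keratin of ducts and mesothelia, had the widest genotype difference of the 8. Its intensity was 220, 293 and 335 on the KO arrays at 0 h, 2.5 h and 4 h, against 75, 99 and 137 on the WT arrays. The lowest KO array stood 1.61-fold above the highest WT array. The KO value was 2.93-fold the WT value at 0 h, 2.96-fold at 2.5 h and 2.45-fold at 4 h (log2 differences of 1.55, 1.57 and 1.29). Only 8 of 11153 genes had a larger log2 difference in favour of KO at 0 h, 28 at 2.5 h and 242 at 4 h, so the place of Krt7 among all genes was less extreme at 4 h, when more genes differed. Each of these values rests on a single probe set and on 1 array a group.

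Krt7 lies at chr15:101412403-101427806 (GRCm38.p6), in the type II keratin cluster that also holds Krt8 (chr15:101996711-102004342), with 568905 bases between the genes. Krt18 (chr15:102028216-102032026) is the type I gene beside Krt8, 23874 bases away. The other type I gene, Krt19, lies at chr11:100140810-100145926. RefSeq promoters (GRCm38.p6) were matched for 4 of the 8 genes, and those of the chromosome 15 keratins are shown because these neighbours differed in pattern. Each line gives the 250 bases before the start, 5′ to 3′ on the gene's strand. Capitals mark matches to any of 9 motifs searched on both strands: AP-1 TGANTCA, CRE TGACGTCA, EGR GCGNGGGCG, SP/KLF GGGCGG, GRHL AACNGGTT, CEBP TTGCGCAA, E-box CACCTG, RUNX TGTGGT and the TATA box letters TATAAA.
Krt7, chr15:101412153-101412402, plus strand: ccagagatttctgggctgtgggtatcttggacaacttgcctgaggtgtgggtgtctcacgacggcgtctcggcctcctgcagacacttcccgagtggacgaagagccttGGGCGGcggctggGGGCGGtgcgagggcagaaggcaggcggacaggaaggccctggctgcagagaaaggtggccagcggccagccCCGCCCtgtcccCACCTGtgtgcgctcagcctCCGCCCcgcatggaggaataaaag
Krt8, chr15:102004343-102004592, minus strand: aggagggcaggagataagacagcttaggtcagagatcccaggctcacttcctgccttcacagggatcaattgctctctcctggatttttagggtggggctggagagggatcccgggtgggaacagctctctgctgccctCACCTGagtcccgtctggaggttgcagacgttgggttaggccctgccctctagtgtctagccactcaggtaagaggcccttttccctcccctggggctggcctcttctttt
Krt18, chr15:102027966-102028215, plus strand: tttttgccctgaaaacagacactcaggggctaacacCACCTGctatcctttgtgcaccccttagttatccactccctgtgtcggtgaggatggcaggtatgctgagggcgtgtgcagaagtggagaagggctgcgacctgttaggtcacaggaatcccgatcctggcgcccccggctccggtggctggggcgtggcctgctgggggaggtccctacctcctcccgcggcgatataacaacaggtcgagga

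The Krt7 window held 4 matches to GGGCGG and the Krt8 and Krt18 windows held 0. Of 32851 RefSeq promoters in the same window, 32.7% had at least 1. Each of the 3 windows held 1 match to CACCTG, which 17.2% of promoters had. They had 0 matches to the AP-1, CRE, EGR, GRHL, CEBP, RUNX and TATA letters. With the 50 bases after the start counted too, Krt8 had 2 matches to TATAAA, and the other counts of these genes were the same. The GC content was 66% for Krt7, 58% for Krt8 and 60.4% for Krt18, against a median of 52.4% over all promoters. Letters of the EGR and SP/KLF motifs can overlap. A match is a description of the letters in this window only.

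Krt19, the type I keratin that lacks most of the tail found in other keratins, had a like pattern to Krt7 on the 6 arrays. It was at 323, 501 and 516 on the KO arrays at 0 h, 2.5 h and 4 h, against 171, 256 and 295 on the WT arrays. The groups did not overlap, but the lowest KO array was only 1.09-fold above the highest WT array, and Krt19 was higher after hCG in WT as well. The KO value was 1.89-fold, 1.96-fold and 1.75-fold the WT value at the 3 times, each under the 2-fold used as the rule of size. Of 11153 genes, 123 at 0 h, 170 at 2.5 h and 988 at 4 h had a larger log2 difference in favour of KO.

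Krt8, the type II keratin of simple epithelia, did not separate the genotypes. Its intensity was 873, 1012 and 1171 on the KO arrays, against 849, 795 and 1020 on the WT arrays, and the groups overlapped. The KO value was 1.03-fold, 1.27-fold and 1.148-fold the WT value, and all 3 Krt8 probe sets gave log2 differences between 0.04 and 0.39. Krt18, its type I partner, had 124, 158 and 177 on the KO arrays, against 139, 160 and 268 on the WT arrays. The genotypes were close until 2.5 h, and at 4 h the KO value was 1.51-fold lower (log2 difference of -0.60). At the same time Krt8 was 1.148-fold higher in KO, a log2 difference of 0.199, where the median of all genes was 0.197. With cyclic loess applied on top of the deposited scaling, the 4 h difference of Krt8 was -0.0049 and that of Krt18 -0.72.

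Upk1b encodes a tetraspanin of the urothelial plaque that mesothelial cells make too. It was at 299, 404 and 436 on the KO arrays, against 194, 200 and 195 on the WT arrays. WT was flat over time, and the KO values were 1.54-fold, 2.02-fold and 2.24-fold those of WT. A further 2 of its 4 probe sets showed the same order. The remaining one gave 347, 210 and 391 on the KO arrays, against 220, 214 and 179 on the WT arrays, so that it showed a difference at 0 h and 4 h and none at 2.5 h (log2 difference of -0.03).

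Upk3b, another uroplakin gene and a marker of mesothelium, was lower in KO before hCG. It had 801, 1022 and 973 on the KO arrays, against 1061, 914 and 925 on the WT arrays. The KO value was 1.32-fold lower at 0 h and 1.12-fold and 1.05-fold higher at 2.5 h and 4 h, and with cyclic loess the later differences turned to -0.0010 and -0.13 on the log2 scale. Its second probe set gave 296, 454 and 417 on the KO arrays, against 438, 392 and 363 on the WT arrays, the same crossing. Of the other uroplakin genes, Upk3a was under the floor, and Upk1a and Upk2 had a median log2 difference of -0.08, -0.14 and -0.40 at the 3 times.

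**Figure D2:**
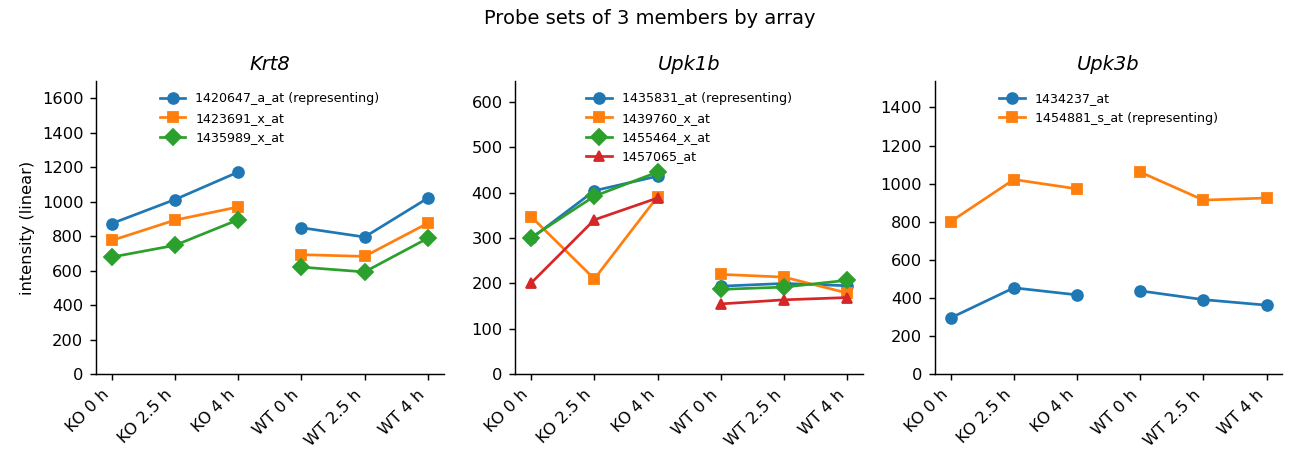
Intensity (linear, axes from 0) of every probe set of Krt8, Upk1b and Upk3b on the 6 arrays, KO left of WT, 1 array per point. The 3 Krt8 probe sets keep their order on all 6 arrays, both Upk3b probe sets are lowest on the KO array at 0 h, and 1 Upk1b probe set drops to 210 on the KO array at 2.5 h while the other 3 stand at 340 to 404.

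Msln encodes mesothelin, a surface protein anchored by a lipid that binds the mucin MUC16. It had 254, 271 and 348 on the KO arrays, against 163, 172 and 167 on the WT arrays, with no overlap and with WT flat. The KO value was 1.56-fold, 1.58-fold and 2.08-fold that of WT. Muc16 itself was under the floor throughout, at 34, 35 and 32 on the KO arrays and 30, 28 and 25 on the WT arrays.

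Cdh1 encodes E-cadherin, the adhesion protein of epithelia that oocytes also make. It was at 225, 119 and 152 on the KO arrays, against 113, 70 and 102 on the WT arrays. The genotypes did not overlap, yet the margin was small, the lowest KO array standing 1.05-fold above the highest WT array. The KO value was 1.99-fold, 1.70-fold and 1.49-fold that of WT, and Cdh1 was the only one of the 8 lower than at 0 h on every hCG array.

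By the rule of size, a gene was counted when 2 arrays differed at least 2-fold and the brighter reached the floor. At 0 h, 1 of the 8 genes (Krt7) was higher in KO and 0 were lower, where 0.681% of 11153 genes were higher and 0.852% lower. At 2.5 h, 2 were higher (Krt7 and Upk1b) and 0 lower, against 1.44% and 2.75% of all genes. At 4 h, 3 were higher (Krt7, Upk1b and Msln) and 0 lower, against 5.00% and 3.51% of all genes. The median log2 difference of the 8 was 0.63, 0.71 and 0.69 at the 3 times, beside medians of -0.03, 0.14 and 0.20 over all genes. With cyclic loess the counts were 2, 1 and 1, and Krt7 was the only gene counted at every time. At 0 h, Cdh1 reached a log2 difference of 1.002 and was counted too. Upk1b fell short at 2.5 h (0.90) and by very little at 4 h (0.9998). Cyclic loess moved the median of all genes by -0.14 at 2.5 h and -0.17 at 4 h. It also turned the split of all genes counted at 4 h, 349 higher and 476 lower in place of 558 and 392, and at 2.5 h gave 117 and 386 in place of 161 and 307.

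**Figure D3:**
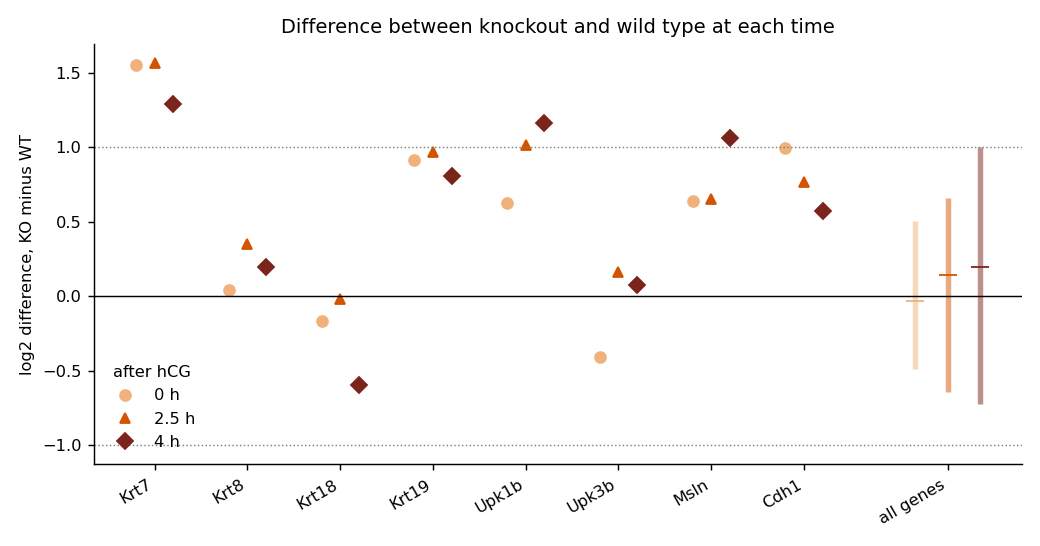
Log2 difference, KO minus WT, of the 8 genes for each of the 3 times, 1 array a group. Bars at the right span the 5th to 95th percentile of 11153 genes with the median marked, and dotted lines mark 2-fold. Krt7 sits at 1.29 to 1.57, Krt19 at 0.81 to 0.97, Krt18 below 0 throughout and at -0.60 at 4 h, and Upk3b at -0.41 at 0 h and above 0 later.

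A single test could draw on the 3 pairs of arrays. An additive model of time and genotype in limma gave the genotype difference over the 3 times, with p-values adjusted by Benjamini-Hochberg over 11153 genes. Its residual is the variation of that difference between times and not the spread between animals. Krt7 was higher in KO by 1.47 on average over the 3 times (log2, SE 0.14), with a positive difference at 3 of 3 times. It ranked 6th by p, but did not pass at 0.05 (limma, adjusted p = 0.0561). Only 4 genes passed (0.0359%), Gng13 as higher in KO and Cemip, Sfrp4 and Cdc42ep3 as lower, named here after their values were seen. None of the 8 was among them, while 1940 genes (17.4%) had an unadjusted p under 0.05. Over the alternatives tried, the adjusted p of Krt7 lay between 0.000378 and 0.121. It passed without the 0 h arrays (adjusted p = 0.0259), where 471 genes did, and without the 4 h arrays (adjusted p = 0.000378), where 245 genes did. Without the 2.5 h arrays, where 16 genes passed, it did not (adjusted p = 0.0966). A fit without a time has fewer residual degrees of freedom. Its residual rests on how alike the genotype differences at the remaining times were. For Krt7 without the 4 h arrays these were 1.55 and 1.57 (log2), so the small p there reflects near-equal differences and not the spread between animals.

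The other genes with a positive difference at all 3 times had estimates of 0.93 (SE 0.16) for Upk1b, 0.90 (SE 0.13) for Krt19, 0.79 (SE 0.15) for Msln, 0.78 (SE 0.14) for Cdh1 and 0.20 (SE 0.14) for Krt8. Their limma adjusted p-values were 0.106, 0.0805, 0.134, 0.128 and 0.457. Krt18 was at -0.26 (SE 0.16, adjusted p = 0.414) and Upk3b at -0.06 (SE 0.16, adjusted p = 0.854). Krt7 thus had the largest estimate, and whether it differs from that of Krt19 or Upk1b was not tested. An exact permutation test of 3 arrays against 3 cannot give a p under 0.1, so none is given for single genes.

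Over the 6 arrays, Krt7 and its neighbours in pattern were ranked by the Pearson correlation of log2 values among 3070 other genes over the floor that varied at least 2-fold. This is a description of 6 arrays that share 2 genotypes and 3 times. The closest gene was Plac1 (r = 0.98), a gene best known from the placenta, which had 739, 1284 and 1386 on the KO arrays, against 365, 455 and 618 on the WT arrays. Next came Nxf3, of the nuclear RNA export family (r = 0.98), and the zinc finger gene Zfp868 (r = 0.97). Krt19 was 4th (r = 0.96) and Scn3b, a sodium channel subunit whose WT intensities of 46, 41 and 54 lay under the floor, was 5th (r = 0.96). Upk1b was 8th (r = 0.94) and Msln 9th (r = 0.94).

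Cdh1 was at place 309 (r = 0.59) and Krt18 at place 1645 (r = 0.0038). Krt8 (r = 0.75) and Upk3b (r = -0.17) varied less than 2-fold and had no place. Upk1b and Msln were close to each other as well (r = 0.98). Among Krt7, Krt19, Upk1b and Msln, pairwise r was 0.87 to 0.98, and with Krt18 each of the 4 had an r between -0.22 and 0.15.

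**Figure D4:**
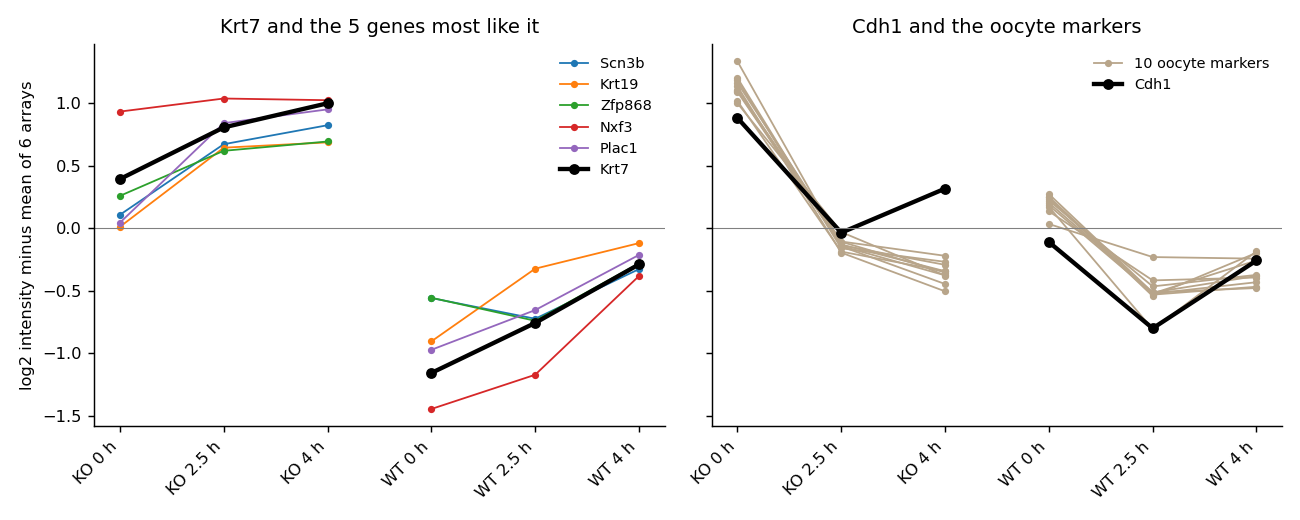
Log2 intensity minus the gene's mean over the 6 arrays, KO left of WT, 1 array per point. The left panel holds Krt7 and the 5 genes with the highest Pearson r to it (0.96 to 0.98), and the right panel Cdh1 with the 10 oocyte markers over the floor, where the KO array at 0 h is the highest for every gene drawn.

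The hCG response was compared within each genotype, where both later arrays share the 0 h array. In KO, Krt7 was 1.33-fold its 0 h value at 2.5 h and 1.52-fold at 4 h, and in WT it was 1.32-fold and 1.83-fold. Krt19 was 1.55-fold and 1.60-fold in KO, and 1.497-fold and 1.73-fold in WT. Both keratins were higher at 4 h than at 2.5 h in each genotype. Krt18 was 1.27-fold and 1.43-fold in KO, and 1.151-fold and 1.93-fold in WT, where the step came at 4 h. Krt8 was 1.16-fold and 1.34-fold in KO, and 0.94-fold and 1.20-fold in WT.

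Upk1b and Msln kept within 1.06-fold of their 0 h value in WT. In KO, Upk1b was 1.35-fold and 1.46-fold its 0 h value, and Msln 1.07-fold and 1.37-fold. Cdh1 was 1.89-fold and 1.48-fold lower after hCG in KO, and 1.61-fold and 1.11-fold lower in WT. None of the 8 reached 2-fold in any of these 4 comparisons. Of all genes, 6.92% and 8.44% did in KO at 2.5 h and 4 h, and 4.30% and 14.0% in WT.

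The median log2 difference from 0 h of the 8 genes was 0.35 and 0.48 in KO and 0.06 and 0.15 in WT, beside medians over all genes of -0.02 and 0.02 in KO and -0.22 and -0.21 in WT. Against that shift in WT, the flat intensities of Upk1b and Msln lay above the middle of all genes. Cyclic loess moved the WT medians of all genes by 0.17 and 0.16, and the WT counts of all genes to 455 higher and 44 lower at 2.5 h, in place of 368 and 112, and to 680 and 651 at 4 h, in place of 548 and 1016. With it, Krt7 (1.02, log2) and Krt18 (1.09, log2) passed 2-fold in WT at 4 h.

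**Figure D5:**
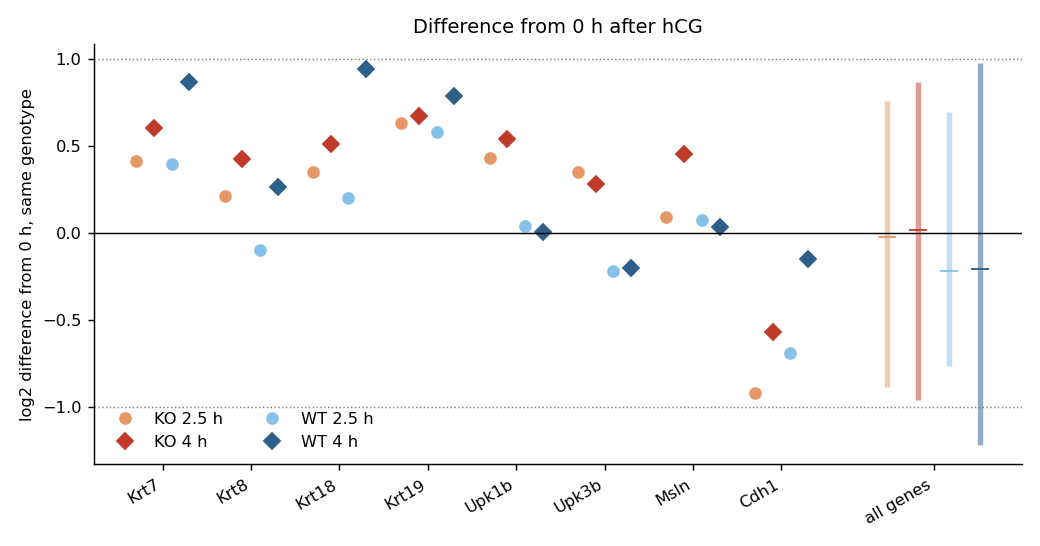
Log2 difference of the 8 genes from the 0 h array of the same genotype at 2.5 h and 4 h after hCG, KO left of WT, with 1 array a group. Bars at the right span the 5th to 95th percentile of 11153 genes with the median marked, and dotted lines mark 2-fold. Cdh1 lies below 0 at all 4 points and Krt7, Krt18 and Krt19 above it.

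The additive limma model also gave a common hCG response, the average of the 2 later times minus 0 h. It passed at 0.05 for 3.44% of genes as a rise and 6.73% as a fall. Krt19 rose by 0.67 (log2, SE 0.14, limma adjusted p = 0.0393), and its adjusted p over the alternatives was 0.0401 to 0.0535, the last without the filter on dim genes. Krt7 was at 0.57 (SE 0.15, adjusted p = 0.0613), Krt18 at 0.50 (SE 0.17, adjusted p = 0.113) and Cdh1 at -0.58 (SE 0.15, adjusted p = 0.0671). The other 4 had estimates of 0.05 to 0.26 and adjusted p-values of 0.351 to 0.866.

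Whether a response differed between genotypes was tested as a limma interaction, which called 0 of 11153 genes, with 1015 (9.10%) at an unadjusted p under 0.05. The 2.5 h and 4 h arrays of a genotype stood there as 1 cell, so the residual is the change between those times. Genes that kept changing after hCG are thus hard to call, and 0 calls does not show that the responses were alike. The estimates nearest to a difference were 0.52 for Upk3b (SE 0.22, adjusted p = 0.546) and 0.46 for Upk1b (SE 0.23, adjusted p = 0.556). For Krt7 it was -0.12 (SE 0.35, adjusted p = 0.896).

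Of 44 further keratin genes on the array, 11 were over the floor and 0 were 2-fold different between genotypes at any time, with median log2 differences of 0.02, -0.11 and -0.03. The 33 under the floor included Krt5 and Krt14, the pair of basal cells of stratified epithelia. After hCG, 3 of the 11 passed 2-fold, and they are named here after their values were seen. Krt20, a type I keratin of gut epithelium, had 333 at 0 h and 74 at 4 h in KO, and 284 and 77 in WT. Krt12, a type I keratin of corneal epithelium, was 3.13-fold and 2.90-fold lower than at 0 h in KO at the 2 later times and 2.05-fold lower in WT at 4 h. Krt79 was 2.94-fold higher in WT at 4 h, from a 0 h intensity of 47 that lay under the floor.

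Of 24 genes of epithelial adhesion and junctions on the array, 17 were over the floor, and they moved in both directions. Higher in KO were Dsp, which encodes the desmosome linker desmoplakin that ties keratin filaments to the membrane, at 0 h (4311 against 2112) and 4 h (2634 against 927), and Marveld2, a tight junction protein gene, at 2.5 h (440 against 75) and 4 h (195 against 63). Perp, a desmosome gene, was lower in KO at 2.5 h (364 against 968) and 4 h (356 against 926). The list counts were 1 higher and 0 lower at 0 h, 1 and 1 at 2.5 h and 2 and 1 at 4 h, with medians of -0.02, -0.06 and 0.10. Their signs turned with the mean of all probe sets at 0 h (0.13) and 2.5 h (0.01), and with cyclic loess at 4 h (-0.12). Cdh2, the N-cadherin gene of granulosa cells, was at 1312, 1222 and 1617 on the KO arrays, against 1638, 1627 and 2072 on the WT arrays, the reverse of Cdh1.

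Of 20 epithelial transcription and splicing factors, 10 were over the floor, and 2 passed 2-fold between genotypes, both at 0 h. Esrp1, an epithelial splicing factor gene, had 584 against 275 in WT, and Ehf, an ETS family factor gene, 157 against 78 in WT. At 2.5 h and 4 h, Esrp1 had 196 and 177 in KO, against 162 and 161 in WT. Ehf then had 72 and 65 in KO, against 67 and 67 in WT. At 2.5 h and 4 h, 0 passed in either direction. Other genes of surface epithelium and mesothelium numbered 22, with 16 over the floor and 3 of them (Upk1b, Upk3b and Msln) already described. At 4 h, 4 of the 16 were at least 2-fold higher in KO, Upk1b, Msln, Gata4, a transcription factor gene that granulosa cells also use (1302 against 361), and Crip1 (1572 against 707). Tm4sf1, a tetraspan membrane protein gene named here after its values were seen, was lower (340 against 741). At 2.5 h, 2 were higher, Upk1b and Gata4, and 0 lower, and at 0 h there were 0 in either direction. Without regard to size, 8, 12 and 13 of the 16 were higher in KO at 0 h, 2.5 h and 4 h, and 8, 4 and 3 lower. Their median log2 differences were 0.12, 0.42 and 0.36, with Upk1b, Upk3b and Msln included, beside -0.03, 0.14 and 0.20 over all genes. Lrrn4, Krt5, Krt14, Rspo1 and Lhx9 were under the floor with Muc16.

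Of 11 oocyte markers on the array, 10 were over the floor and 0 were at an intensity of 0. Their summed intensity was 27316, 11301 and 9925 on the KO arrays at 0 h, 2.5 h and 4 h, against 14459, 8784 and 9388 on the WT arrays. At 0 h all 10 were higher in KO (median log2 difference 0.93, where Cdh1 was at 0.99), at 2.5 h all 10 were (0.38, with Cdh1 at 0.77), and at 4 h 5 were higher and 5 lower (-0.02, with Cdh1 at 0.58). Over the 6 arrays, r with their mean was 0.80 for Cdh1 and 0.09 for Krt7. Esrp1 (584), Ehf (157) and Krt12 (194) were also highest on the KO array at 0 h. So were Dsp (4311), Krt20 (333) and further genes of the lists, such as Bnc1 (580). The part of oocyte transcripts in the differences of these genes and of Cdh1 was not tested.

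Theca and stroma markers had sums of 38631, 52886 and 55696 on the KO arrays, against 40454, 31923 and 27997 on the WT arrays, with 9 of 10 over the floor. Cyp17a1 was the 1 gene past 2-fold between genotypes, higher in KO at 2.5 h (14251 against 2037) and 4 h (13997 against 1399). The markers did not move together, as 6, 5 and 2 of the 9 were lower in KO at the 3 times. Their median log2 differences were -0.11, -0.09 and 0.33. Endothelial markers, with 3 of 7 over the floor, summed to 551, 564 and 555 on the KO arrays, against 529, 962 and 797 on the WT arrays. Of the 3 over the floor, 0, 2 and 0 were at least 2-fold lower in KO at the 3 times, and 0 higher. Their median log2 differences were -0.35, -1.01 and -0.57. Leukocyte markers, with 6 of 8 over the floor, summed to 1262, 1559 and 1698 on the KO arrays, against 1210, 1284 and 1255 on the WT arrays. Granulosa markers had 0, 2 and 4 of 8 at least 2-fold higher in KO at the 3 times. The ratio of 3′ to 5′ Gapdh probe sets, a sign of RNA integrity, was 5.21, 3.99 and 4.24 on the KO arrays, against 4.79, 3.55 and 4.01 on the WT arrays. The part of these in the differences of Krt7, Krt19, Upk1b and Msln was not tested.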

How the data were processed

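Arrays of 6 groups, 1 array each, were grouped by genotype and hours after hCG from the labels. The deposited table holds linear intensity values, made by the authors with RMA in the affy package, per the submitters' processing notes. Values are rounded to whole numbers, which is coarse for dim genes, RMA's quantile step hides changes in total RNA, and the number of arrays limits the precision. Of 45101 probe sets, 34958 named 1 gene, 932 several and 9211 none in the platform annotation, and 14 named the 8 genes. Where a gene had several, the one brightest on average stood for it. Genes with a mean log2 of at least 6 (11153) were tested.

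Pairwise comparisons used the rule of size. With limma 3.58.1 in R 4.3.3, tested on simulated data, an additive model of time and genotype and a model with the 2.5 h and 4 h arrays of a genotype as 1 cell each left 2 residual degrees of freedom. The additive model without a time left fewer. The rule for naming genes took the 8, list genes 2-fold different between genotypes (at most 3 per list and comparison) and the 5 most like Krt7. Not all list genes that met it are named in the text, and some that did not, such as Cdh2, are. Members and lists were chosen with earlier results of these data known. The 50 bases after each start, planned for the motif search, are not shown and are counted only where stated. Alternatives were the mean of all probe sets, cyclic loess, other floors, an offset of 32 and 1.5-fold. Further ones were the other genotype's 0 h array, no filter, an eBayes trend and leaving out each time. Cyclic loess was run on the log2 of the deposited RMA values, so it is not a separate scaling of raw data.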

Additional observations from a re-analysis of the deposited data

Results flagged for a closer look

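Upk3b was singled out because its hCG response ran in opposite directions in the genotypes. Relative to 0 h it was 1.28-fold and 1.21-fold higher in KO at 2.5 h and 4 h, and 1.16-fold and 1.147-fold lower in WT. Over both times the response in KO minus that in WT was 0.52 on the log2 scale, and the limma interaction did not pass (adjusted p = 0.546, between 0.46 and 0.827 over the alternatives). Both probe sets of Upk3b showed the crossing. With cyclic loess the WT responses were -0.02 and -0.0043, so the WT side of the crossing was close to 0 there.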

How the results depend on the processing

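With 1 array a group there is no replicate to leave out. No paired analysis was possible because the labels give no replicate numbers by which to pair animals or cultures. The additive limma fit did set KO against WT within each time. Krt7 stayed at least 2-fold higher in KO at every time under the 6 alternatives of these comparisons. Its log2 differences were 1.24 to 1.57 at 0 h, 1.31 to 1.57 at 2.5 h and 1.12 to 1.29 at 4 h. Only cyclic loess and the offset of 32 could change these values. Krt7 has 1 probe set, and the other alternatives change only floors, the fold or the averaging of probe sets. The counts of the 8 genes past 2-fold between genotypes were 1, 2 and 3 at 0 h, 2.5 h and 4 h. With cyclic loess they were 2, 1 and 1. Averaging the probe sets gave 1 at 2.5 h, and an offset of 32 gave 1 at 2.5 h and 2 at 4 h, where Msln fell short (0.93, log2). At 1.5-fold there were 5 at each time. At 0 h and 2.5 h these were Krt7, Krt19, Upk1b, Msln and Cdh1, all higher in KO, beside 3.83% and 6.80% of all genes higher. At 4 h they were 4 higher (Cdh1 no longer among them) and Krt18 lower, beside 2011 of 11153 genes higher and 735 lower. After hCG the counts were 0. At 1.5-fold they were 2 and 2 in KO and 1 and 3 in WT at 2.5 h and 4 h (all genes 19.8%, 21.6%, 18.9% and 33.9%), with Cdh1 lower at 2.5 h in both and the others higher, and with cyclic loess 2 in WT at 4 h. From the other genotype's 0 h array they were 3 and 4 in KO and 2 and 2 in WT, and there the WT difference of Krt7 at 2.5 h turned to -1.15, since the genotype difference at 0 h enters. The limma genotype difference called 4 genes, against 0 with the mean of all probe sets, cyclic loess or no filter, 1 with the offset, 8 with the eBayes trend, and 471, 16 and 245 without the 0 h, 2.5 h and 4 h arrays. Of the 8 genes it called 0, but 3 without the 0 h arrays (Krt7, Krt19 and Upk1b) and 4 without the 4 h arrays (with Cdh1 added). Fits without a time have fewer residual degrees of freedom, so these counts are no firmer than that of the full fit. The estimate of Upk3b turned to 0.12 without the 0 h arrays. The limma hCG response called 1135 genes, against 701 with the mean of all probe sets, 687 with cyclic loess and 432 with no filter, where the count of the 8 was 0 in place of 1. The interaction estimate of Krt19 was -0.03 and turned to 0.0101 with the offset. The cause of these shifts was not tested. Dim signal limits Krt7 and Cdh1, whose lowest WT intensities of 75 and 70 lay just over the floor.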
